A study of Mus musculus with 2 samples.

Results

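The aminoacyl-tRNA synthetases are the enzymes that join each amino acid to its transfer RNA. They were taken here by gene symbol: the single-letter code of an amino acid followed by "ars", with or without a closing 2, together with Eprs, Farsa, Farsb and Tarsl2, where the annotation lists a protein_coding transcript. This rule found 38 genes among 55536 annotated genes, of which 22015 were nuclear protein-coding genes. By textbook knowledge, 19 of the 38 serve the cytosol, 17 serve mitochondria, and Gars and Kars supply both compartments from a single gene. The libraries held total RNA of the gastrocnemius, a calf muscle of mainly fast fibres, from male B6CASTF1/J mice aged 14 days, which are hybrids of C57BL/6J with CAST/EiJ. The labels give no treatment, transgene or second condition, so there was 1 group with 2 libraries, replicate 1 and replicate 2, each made with 300 ng of RNA and a set of ERCC control RNAs. Both libraries carry the same donor identifier and the labels mention 3 males, so separate animals are not established, and p-values speak only of these 2 libraries, whose spread may be technical.

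Every codon that a ribosome reads needs a charged transfer RNA, and muscle, which is rich in protein, runs this charging in the cytosol and again inside its mitochondria. The enzymes fall into 2 structural classes, I and II, that approach the transfer RNA from opposite sides. In animals several cytosolic synthetases are held with scaffold proteins in the multisynthetase complex. Mitochondria import a separate set, encoded in the nucleus, and make glutaminyl-tRNA by a detour in which glutamate is attached first and then amidated.

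Gars and Kars are the genes for which a single locus must give a cytosolic and a mitochondrial enzyme, so the start of their coding sequence is shown. The sequences are from the GENCODE M21 transcripts on GRCm38, 5′ to 3′ in the direction of the gene, and capitals mark the annotated start codon of each coding part and, for Gars, also the next in-frame ATG. For Kars, on the minus strand of chromosome 8, the start codon of Kars-201 lies in the first exon, while Kars-202 and Kars-203 include a further exon with a start codon of its own. In human cells the mitochondrial lysyl-tRNA synthetase is made from transcripts that keep such an extra exon. The coding part was 595 codons long in Kars-201 and 624 codons long in Kars-202 and Kars-203. For Gars, on the plus strand of chromosome 6, the stretch runs from the first to the second in-frame start codon. In human cells the 2 enzymes are known to come from a choice between 2 such starts in one mRNA. The coding part of Gars-201 was 729 codons long.
Kars-201, first coding part, chr8:112011210-112011268: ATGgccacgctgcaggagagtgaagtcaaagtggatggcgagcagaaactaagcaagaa
Kars-202 and Kars-203, first coding part, chr8:112008207-112008352: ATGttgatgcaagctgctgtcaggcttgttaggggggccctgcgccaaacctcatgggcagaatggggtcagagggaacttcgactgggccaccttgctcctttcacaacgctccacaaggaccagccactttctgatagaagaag
Gars-201, first to second start codon, chr6:55038042-55038182: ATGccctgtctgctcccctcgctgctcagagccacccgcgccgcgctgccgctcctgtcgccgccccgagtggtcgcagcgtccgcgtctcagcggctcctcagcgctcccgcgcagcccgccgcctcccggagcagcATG

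The gene tables held 40825601 expected counts in replicate 1 and 37329025 in replicate 2, and a synthetase gene took between 71 and 7551 of them in a library. Added RNAs took 0.731% and 0.881% of the counts. The floor of 3 counts was 0.0735 CPM in the first library and 0.0804 CPM in the second, and it covers counting error only. The labelled tissue was matched by its defining markers: 5 of 5 skeletal muscle fibre genes were detected, with a summed level of 91128 TPM in replicate 1 and 97859 TPM in replicate 2. Lymphocyte markers summed to 0.19 and 0.44 TPM, and none of the 4 reached 1 TPM. These are bulk libraries, in which fewer cells of a type and less RNA per cell cannot be told apart.

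All 38 synthetase genes were expressed at 1 TPM (a length-corrected share of all transcripts) or more in both libraries. Together they took 0.145% of nuclear protein-coding TPM in replicate 1 and 0.139% in replicate 2. The cytosolic set was the more abundant: its 19 genes had a median of 19.5 TPM in replicate 1 and 20.4 TPM in replicate 2, and the 17 mitochondrial genes had 6.31 and 5.96 TPM. Summed, the cytosolic genes gave 458.9 and 448.0 TPM, the dual genes 71.8 and 71.1 TPM, and the mitochondrial genes 141.2 and 137.8 TPM. Against the median of 7.55 TPM over 11077 expressed nuclear protein-coding genes (mean of 1 TPM or more), 19 of 19 cytosolic genes and 6 of 17 mitochondrial genes lay above. With 2 libraries an exact sign-flip test cannot go below a p of 0.5, so levels and ratios are given as descriptions with their spread.

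**Figure D1:**
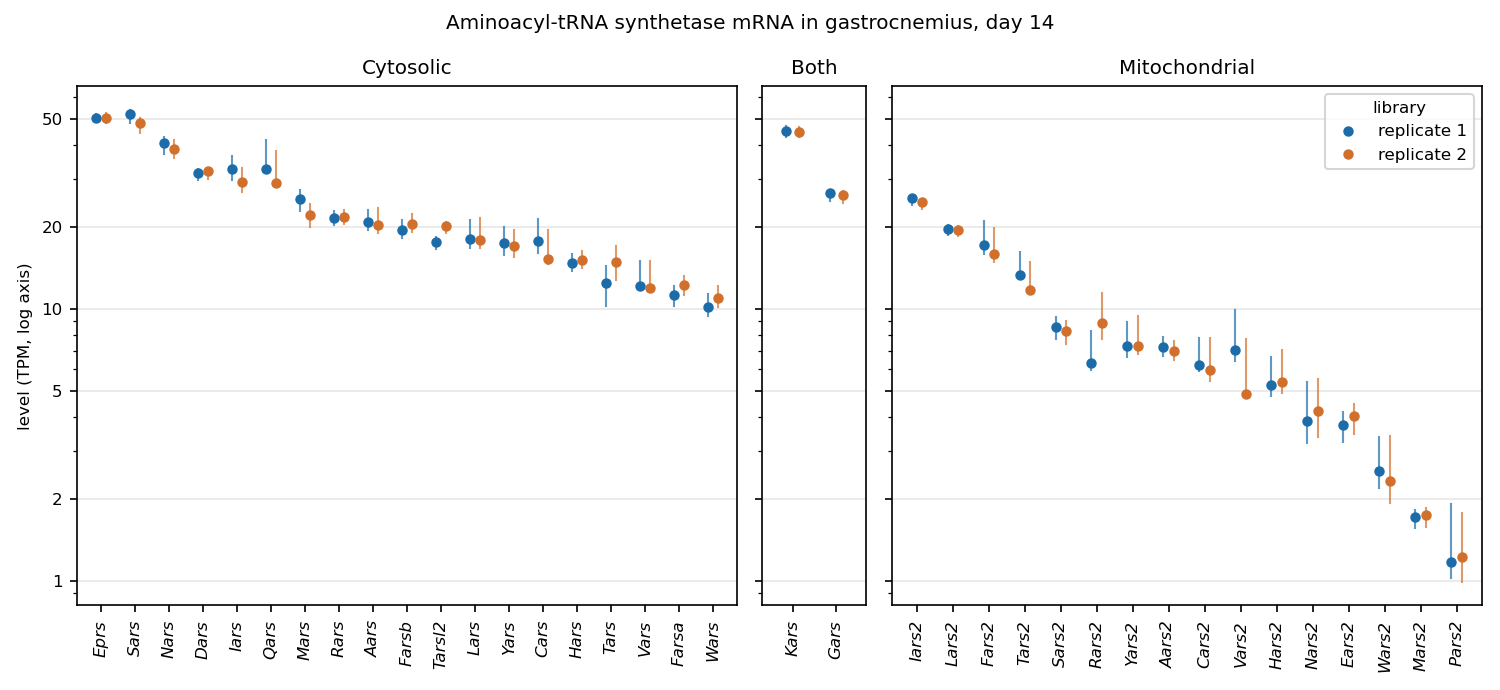
Level of 37 aminoacyl-tRNA synthetase genes in TPM on a log axis, in cytosolic, dual (both compartments) and mitochondrial panels, each ordered by mean level. Points are the 2 libraries and vertical lines the interval that the quantifier gives. The cytosolic genes run from Eprs at 50.3 TPM down to Wars at 10.6 TPM, and the mitochondrial genes from Iars2 at 25.2 TPM down to Pars2 at 1.20 TPM (means of 2 libraries).

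Among the most abundant synthetases in the gene table was Eprs, the fused glutamyl- and prolyl-tRNA synthetase and the only member that carries 2 amino acids. Eprs (ENSMUSG00000026615.14, chromosome 1, 185363044 to 185428360, plus strand) had 50.3 TPM in both libraries, rank 1012 among nuclear protein-coding genes. Sars, the seryl-tRNA synthetase (ENSMUSG00000068739.13, chromosome 3, 108424865 to 108445209, minus strand), had 52.1 and 48.2 TPM in replicates 1 and 2. The libraries of Eprs lay inside the range of those of Sars, so the order of this pair is not resolved. In the second quantification Eprs, with 64.1 and 64.6 TPM, lay below Lars2 (83.0 and 89.8 TPM) and Kars (66.7 and 69.6 TPM). Kars, the lysyl enzyme, followed with 45.2 and 44.9 TPM, and Nars, the asparaginyl enzyme, with 40.7 and 38.9 TPM. The next neighbour, the aspartyl enzyme Dars, had 31.7 and 32.1 TPM, and the quantifier's intervals of Nars and Dars lay apart in both libraries.

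Iars (isoleucine) had 32.7 and 29.3 TPM, Qars (glutamine) 32.8 and 29.0 TPM, and Gars (glycine) 26.6 and 26.2 TPM. Dars, Iars and Qars overlapped each other in their library values. Gars had tight values, with an SD of 0.240 TPM around a mean of 26.4 TPM (n = 2), and in human patients changes in this gene cause an inherited neuropathy of motor and sensory nerves. Mars (methionine) had 25.3 and 22.2 TPM, Rars (arginine) 21.6 and 21.8 TPM, and Aars (alanine) 20.9 and 20.4 TPM.

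The lower part of the cytosolic set ran from 20 TPM down to about 10 TPM. The phenylalanyl enzyme is built from 2 kinds of subunit, and its beta subunit Farsb had 19.5 and 20.4 TPM while its alpha subunit Farsa had 11.2 and 12.3 TPM. The within-library ratio of Farsb over Farsa was 1.74 in replicate 1 and 1.66 in replicate 2, and 2.78 and 2.77 in the second quantification. For threonine there are 2 cytosolic genes, and Tarsl2, the threonyl-like synthetase, had 17.6 and 20.1 TPM while the classical Tars had 12.5 and 14.8 TPM. The ratio of Tarsl2 over Tars, 1.41 and 1.36 here, was below 1 in the second quantification (0.902 and 0.972) and was 2.14 and 2.29 over protein_coding transcripts alone, so the order of the 2 threonine genes depends on which transcripts are counted.

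Lars (leucine) had 18.0 TPM in both libraries, Yars (tyrosine) 17.4 and 17.0 TPM, Cars (cysteine) 17.8 and 15.2 TPM and Hars (histidine) 14.7 and 15.1 TPM. Vars (valine) had 12.1 and 11.97 TPM. Wars (tryptophan), which serves the rarest amino acid, had the lowest cytosolic level of the gene table with 10.2 and 11.0 TPM. The quantifier's intervals of Wars and of the next gene in the order, the mitochondrial Sars2, lay apart in both libraries. The 8 members of the multisynthetase complex (Eprs, Dars, Iars, Kars, Lars, Mars, Qars and Rars) had a median of 32.2 TPM in replicate 1 and 29.1 TPM in replicate 2, and the 13 cytosolic or dual genes outside the complex had 17.6 and 17.0 TPM. The structural classes differed less, with medians of 18.0 and 18.0 TPM for the 9 class I genes and 20.9 and 20.4 TPM for the 11 class II genes of the cytosolic and dual sets, Eprs left out because it holds a domain of each.

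In the gene table the mitochondrial set was led by Iars2, the mitochondrial isoleucyl enzyme (ENSMUSG00000026618.11, chromosome 1, 185284726 to 185329396, minus strand), with 25.6 and 24.8 TPM. Lars2 (leucine) had 19.7 and 19.4 TPM, but led in the second quantification with 83.0 and 89.8 TPM, where Iars2 had 31.8 and 30.5 TPM. Fars2 (phenylalanine) had 17.1 and 15.95 TPM and Tars2 (threonine) 13.4 and 11.7 TPM. These 4 genes overlap the cytosolic range. The rest lay below 9 TPM in both libraries. Sars2 had 8.58 and 8.28 TPM, Yars2 had 7.32 and 7.30 TPM, and Aars2, the alanyl enzyme that is mutated in a human infantile cardiomyopathy, had 7.23 and 6.99 TPM.

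In gene-table TPM, Rars2 (6.31 and 8.89 TPM) and Vars2 (7.07 and 4.85 TPM) had the widest gaps between libraries for their level. The gap of Vars2 was not seen in its counts, 507 and 440, with a TMM-scaled log2 difference of 0.045. In the second quantification Vars2 had 7.81 and 7.43 TPM, and Rars2 11.9 and 13.7 TPM. Cars2 had 6.23 and 5.96 TPM, and Hars2 had 5.24 and 5.37 TPM. Nars2 had 3.87 and 4.2 TPM, Ears2 had 3.75 and 4.03 TPM, and Wars2 had 2.53 and 2.33 TPM. At the bottom stood the methionyl and prolyl enzymes. Mars2, which charges the transfer RNA for both starting and internal methionines in mitochondria, had 1.72 and 1.74 TPM over an annotated transcript of 11294 bases. Pars2 (ENSMUSG00000043572.7, chromosome 4, 106651069 to 106655282, plus strand) had 1.17 and 1.22 TPM, from 80 and 71 counts. The quantifier's intervals of Wars2 and Mars2 lay apart in both libraries.

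Over the whole order of 38 genes, 19 of the 37 neighbouring pairs had overlapping library values, and 4 had quantifier intervals that lay apart in both libraries. In the class comparison of mitochondrial genes, the 9 class I genes had a median of 6.31 TPM in replicate 1 and 5.96 TPM in replicate 2, and the 8 class II genes had 6.24 and 6.18 TPM. For 4 genes (Qars, Vars, Tars2 and Vars2) the deposited TPM lay outside the deposited interval in at least 1 library.

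Cytosolic and mitochondrial forms of the same amino acid could be compared for 17 amino acids, in 19 pairs because phenylalanine has 2 cytosolic subunit genes and threonine 2 cytosolic genes. The cytosolic form was higher in both libraries in 16 of 19 pairs, the mitochondrial form in 2, and Tars against Tars2 changed sides between the libraries. The quantifier's intervals lay apart in both libraries with the cytosolic form higher in 15 pairs and with the mitochondrial form higher in 1. The median ratio was 2.81, and 12 pairs were over 2-fold in both libraries.

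The widest pairs joined high cytosolic levels with the lowest mitochondrial ones. Eprs over Pars2, the proline pair, was 43.0 in replicate 1 and 41.2 in replicate 2 (42.1 ± 1.25, SD, n = 2). Mars over Mars2 was 14.7 and 12.7 (13.7 ± 1.39), and Eprs over Ears2, the glutamate pair, was 13.4 and 12.5 (12.9 ± 0.659). Nars over Nars2 was 9.88 ± 0.883, Sars over Sars2 5.95 ± 0.172 and Wars over Wars2 4.36 ± 0.489 (SD, n = 2 for each). The asparagine ratio averaged 6.89 in the second quantification, and over protein_coding transcripts 12.8 in the first and 16.05 in the second. The tryptophan ratio averaged 8.61 and 7.36 over protein_coding transcripts in the first and the second quantification.

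A middle group had mean ratios between 2 and 3 in the gene table. Rars over Rars2 was 2.94 ± 0.684, Aars over Aars2 2.91 ± 0.0180, Hars over Hars2 2.81 ± 0.0070, Cars over Cars2 2.71 ± 0.212, Yars over Yars2 2.35 ± 0.0360 and Vars over Vars2 2.09 ± 0.536 (SD, n = 2 for each). Over protein_coding transcripts Vars over Vars2 averaged 4.66 in the first and 5.05 in the second quantification, and in the second quantification of whole genes Cars over Cars2 averaged 4.34. In the gene table the libraries were within 1% of each other for alanine and histidine. Arginine and valine, whose mitochondrial genes had the widest library gaps in gene-table TPM, spread most there. In the second quantification the valine ratio was 1.99 and 1.95, and the arginine ratio 3.80 and 2.74.

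At the low end the levels of the 2 forms were closer. Iars over Iars2 was 1.28 in replicate 1 and 1.18 in replicate 2, and Tarsl2 over Tars2 was 1.32 and 1.72. Tars and Tarsl2 summed to 2.25 and 2.99 times Tars2. For phenylalanine, Farsb over Fars2 was 1.14 and 1.28 with overlapping quantifier intervals, and Farsa over Fars2 was 0.655 and 0.770. The mitochondrial gene thus lay between the 2 cytosolic subunits in TPM, but its intervals did not separate it from Farsb. Over protein_coding transcripts Farsa over Fars2 was 0.840 and 0.965 in the first and 0.839 and 0.993 in the second quantification. For leucine, Lars over Lars2 was 0.916 and 0.924 with overlapping quantifier intervals, and 0.234 and 0.214 in the second quantification.

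**Figure D2:**
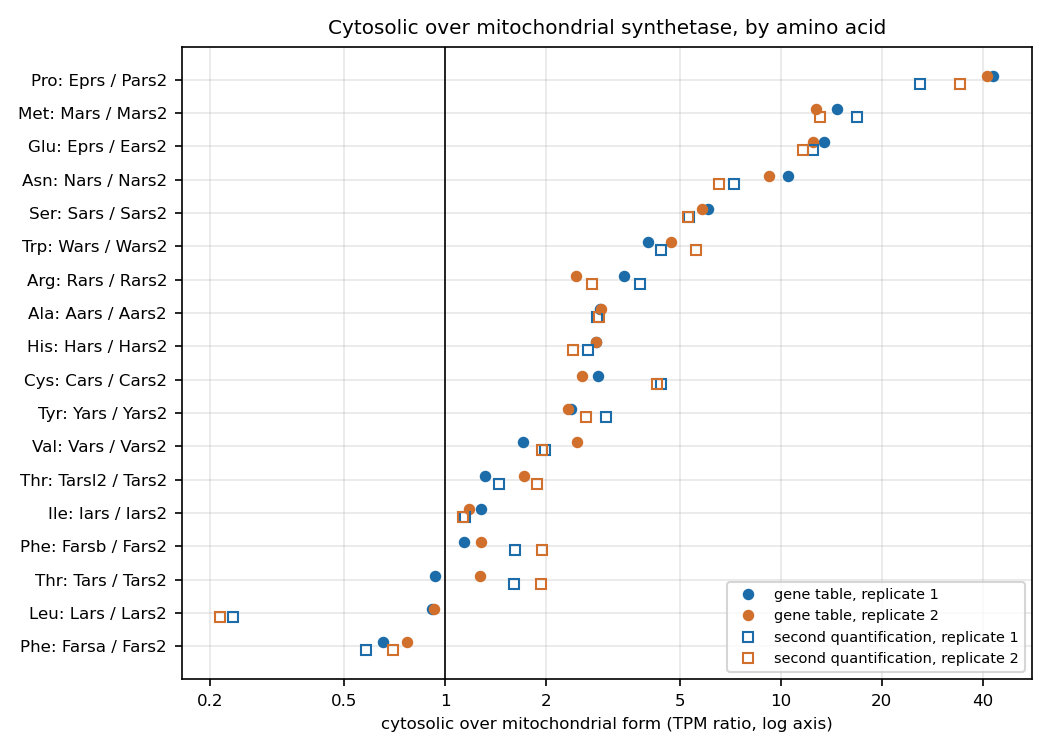
TPM ratio of the cytosolic over the mitochondrial synthetase for 18 of the pairs on a log axis, ordered by the gene-table ratio. Filled circles are the gene table and open squares the second quantification, in 2 libraries each, and the vertical line marks equal levels. Proline stands at 42.1 on average, and Lars over Lars2 and Farsa over Fars2 lie left of the line in all 4 values.

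Each library was quantified in a second way, directly from the reads, and the first quantification gave lower TPM than the second for most genes. The ratio of first over second had a median of 0.757 over the 38 synthetases, a lowest value of 0.226 and a highest of 0.944, against a median of 0.739 over the expressed nuclear protein-coding genes. The first value was lower by more than 1.5-fold in both libraries for 9 synthetases (23.7%), namely Cars, Farsb, Qars, Rars, Tars, Lars2, Nars2, Pars2 and Rars2, and for 2395 expressed genes (21.6%). The gap was widest for Lars2, with 19.7 and 19.4 TPM in the first and 83.0 and 89.8 TPM in the second quantification.

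The transcripts show where the 2 quantifications part. The 38 genes have 303 annotated transcripts, 101 of them protein_coding. In the first quantification protein_coding transcripts took 82.7% of synthetase TPM in replicate 1 and 86.8% in replicate 2, and over all expressed nuclear protein-coding genes they took 87.0% and 87.6%. Some transcripts are annotated as targets of nonsense-mediated decay, a pathway that removes mRNAs with an early stop codon. They took 8.66% and 6.36% of synthetase TPM and 1.61% and 1.56% of the summed TPM of all those genes. In such sums the most abundant genes weigh most, and a decay share per gene was not computed. A few transcripts led the synthetase share, among them Qars-231 with 18.1 and 14.6 TPM and Nars-209 with 10.4 and 3.00 TPM. The median protein_coding share per gene was 89.5% and 90.4% over the synthetases, and 92.8% and 94.97% over all those genes. In the second quantification the protein_coding share of the synthetases was 73.5% and 75.4%, and that of decay targets 9.72% and 9.27%. The leading transcript was the same in both libraries and both quantifications for 26 of 38 genes.

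Gars had 1 dominant mRNA, Gars-201, whose start region is printed above. It took 97.4% and 98.3% of Gars TPM in the first and 99.5% and 99.5% in the second quantification. This mRNA spans both in-frame start codons, so the level says nothing of how often each is used. For Kars the first quantification gave Kars-201, which starts in the first exon, 23.3 and 26.3 TPM in replicates 1 and 2. It gave Kars-202, with the extra exon, 18.3 and 11.7 TPM and Kars-203, also with the extra exon, 2.36 and 6.73 TPM. In the second quantification Kars-201 was listed at 0 and 1.33 TPM, Kars-202 had 33.9 and 32.1 TPM and Kars-203 had 19.8 and 20.9 TPM. A further protein_coding model of 407 bases, Kars-205, had 12.8 and 15.1 TPM there, and 0.20 and 0 TPM in the first. The start exon of Kars-205 was not examined. The transcripts with the extra exon were detected in both libraries by both quantifications, whereas the share of the first-exon form rests on the quantification.

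Lars2 showed the largest total shift. Its leading coding transcript of 3894 bases had 11.7 and 13.3 TPM in the first and 14.4 and 16.6 TPM in the second quantification. A retained-intron transcript of 889 bases was listed at 0 in both libraries in the first quantification and had 33.3 and 39.8 TPM in the second. A decay target of 3756 bases had 7.25 and 5.82 TPM in the first and 32.3 and 30.7 TPM in the second. Over protein_coding transcripts alone, Lars over Lars2 was 0.975 and 0.913 in the first and 0.966 and 0.899 in the second quantification, so the leucine pair stayed close to equal by coding mRNA in both.

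For the phenylalanyl beta subunit, Farsb-201 had 16.8 and 17.2 TPM in the first and 4.33 and 4.05 TPM in the second quantification. There Farsb-204, a decay target, had 18.4 and 19.9 TPM and Farsb-206, a protein_coding model of 619 bases, had 17.5 and 21.2 TPM. For Tars, the coding Tars-201 was close in both, at 8.22 and 8.73 TPM in the first and 9.07 and 9.71 TPM in the second. Its retained-intron transcripts carried the rest, Tars-204 with 1.91 and 3.51 TPM in the first and 8.52 and 12.2 TPM in the second.

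Qars, with 34 annotated transcripts the most divided gene, was led in the first quantification by Qars-231, a decay target with 18.1 and 14.6 TPM. In the second, Qars-231 had 9.14 and 8.27 TPM and Qars-201, a protein_coding transcript, 12.5 and 9.40 TPM. There Qars-201 led in replicate 1, and Qars-229, another decay target, led in replicate 2 with 9.76 TPM. Protein_coding transcripts took 25.2% and 31.5% of Qars TPM in the first quantification and 24.3% and 22.8% in the second.

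**Figure D3:**
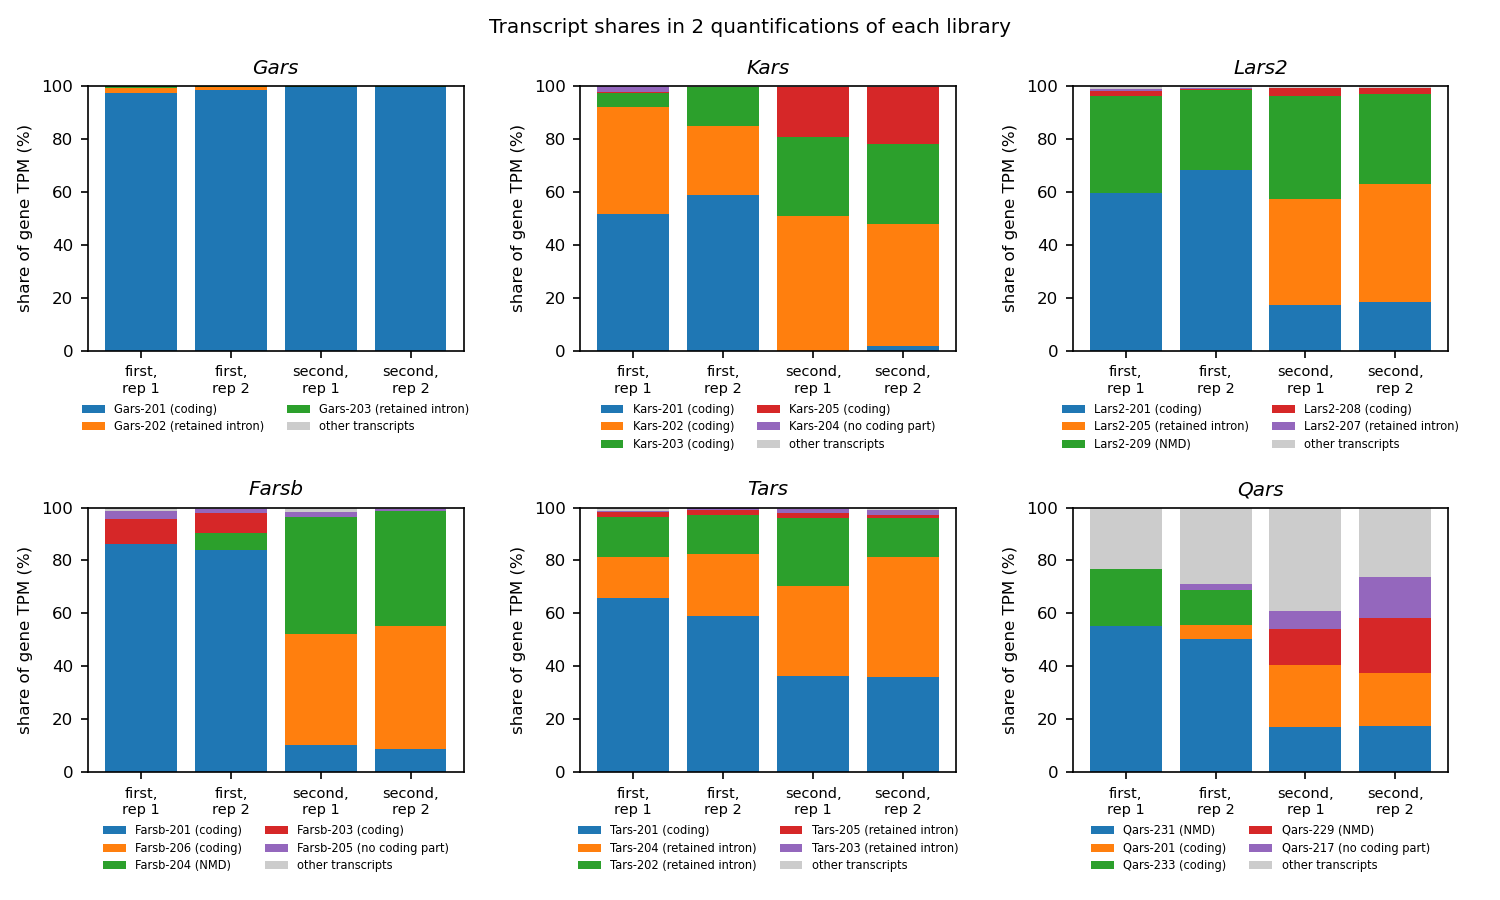
Share of each gene's TPM taken by its transcripts, in percent, for 6 synthetases in replicates 1 and 2 of the first and the second quantification (NMD, target of nonsense-mediated decay). Gars-201 takes over 97% in all 4 bars, whereas Kars-201 takes 51.6% and 58.7% in the first quantification and 0 and 1.91% in the second.

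The libraries differed little in their synthetases. In a two-sided exact binomial test on expected counts, scaled by TMM and adjusted over 17245 genes (Benjamini-Hochberg), 3 of 38 synthetases were called, and all 3 were higher in replicate 2. Of all genes tested, 21.3% were called, with 11.3% higher in replicate 2 and 1733 genes higher in replicate 1, and of expressed nuclear protein-coding genes 27.9% were called. The median log2 difference, replicate 1 over replicate 2, was -0.07 over the synthetases and 0.003 over all genes tested, with 9 synthetases above 0 and 29 below. The median size of the difference was 0.077 for synthetases, 0.126 for expressed nuclear protein-coding genes and 0.177 for all genes tested.

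Tarsl2 had 1745 counts in replicate 1 and 1862 in replicate 2, a log2 difference of -0.25 (95% exact binomial interval -0.35 to -0.16, adjusted p = 2.65e-06). Tars had 1121 and 1140 counts, a difference of -0.18 (interval -0.30 to -0.06, exact binomial test, adjusted p = 0.0163). Both cytosolic threonine genes were thus higher in replicate 2, in TMM-scaled counts and in TPM, and neither was called when totals of the added ERCC RNAs set the scale. Nars had 2448 and 2403 counts, a difference of -0.13 (interval -0.21 to -0.05, exact binomial test, adjusted p = 0.00992). In TPM, however, Nars was higher in replicate 1, at 40.7 against 38.9 TPM, and its protein_coding transcripts took 55.7% of its TPM in replicate 1 and 84.9% in replicate 2. The part of this transcript split in the reversal was not tested.

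Rars2 had the largest difference in size, -0.29, from 316 and 346 counts, and missed the threshold (exact binomial test, adjusted p = 0.0509). The highest difference was that of Cars2, 0.11 from 317 and 263 counts, and was not called. The calls depend on the scale. With totals of the added ERCC RNAs the median of all genes moved by 0.30 on the log2 scale, which turns small negative differences positive. On that scale 27 synthetases, Nars among them, were called higher in replicate 1, and 51.8% of all genes tested were called in either direction. The median difference was then 0.23 over the synthetases and 0.304 over all genes. A change of scale moves every gene by the same amount, so the gap between these medians is fixed and adds nothing to the TMM result. Under total counts only Tarsl2 was called among the synthetases, and 20.5% of all genes tested. Several marker lists moved between the libraries. Skeletal muscle fibre markers, whose sums are given above, were called higher in replicate 2 in 5 of 5 cases, with a median log2 difference of -0.17. Adipocyte markers summed to 2.33 and 16.01 TPM (4 of 4 called) and erythroid markers to 1335 and 1879 TPM (4 of 4 called). Fibroblast and progenitor markers summed to 1818 and 1317 TPM (4 of 4 called), dividing-cell markers to 18.1 and 12.5 TPM (3 of 4), endothelial markers to 138.0 and 118.7 TPM (3 of 4), Schwann cell markers to 77.5 and 114.2 TPM (2 of 4) and macrophage markers to 21.5 and 21.2 TPM (0 of 4). Their part in the synthetase differences was not tested.

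**Figure D4:**
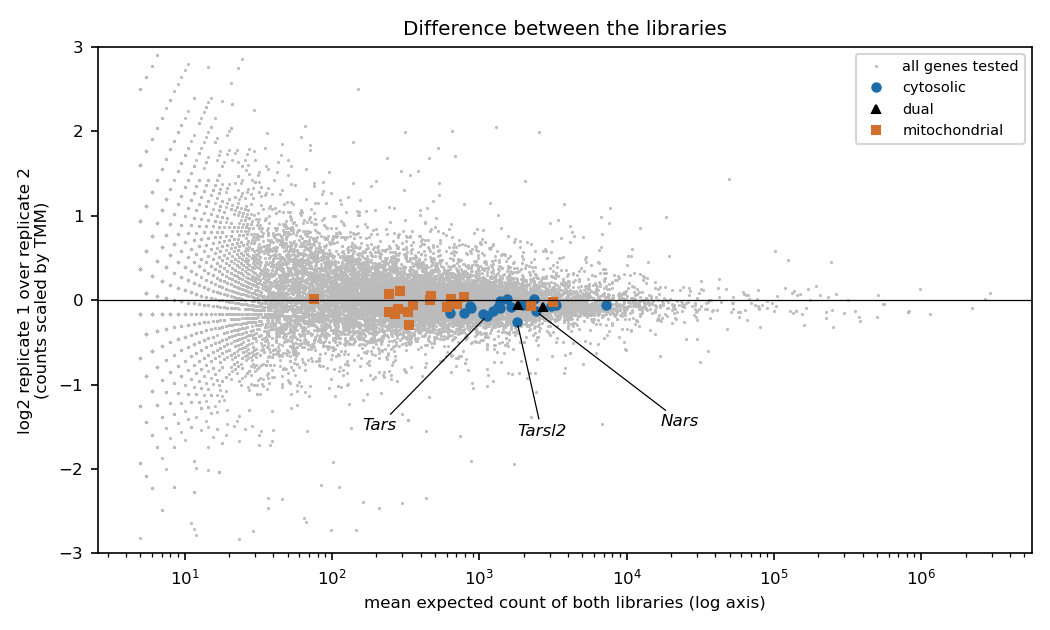
Difference between the libraries as log2 of replicate 1 over replicate 2 (counts scaled by TMM) against the mean expected count on a log axis. Grey points are the 17245 genes tested, 60 of which lie outside the axis, coloured points are the 38 synthetases, and the 3 called ones are named. The synthetases run from -0.29 to 0.11.

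The partners of the synthetases were followed in lists of related genes. Calls in these lists stand beside the 21.3% of all genes tested, and 27.9% of expressed nuclear protein-coding genes, that were called. The multisynthetase complex is held together by the scaffold proteins Aimp1, Aimp2 and Eef1e1. Aimp2 had 44.9 and 52.9 TPM (log2 difference of counts -0.30, exact binomial test, adjusted p = 2.02e-07) and Eef1e1 had 6.42 and 8.08 TPM (-0.40, exact binomial test, adjusted p = 0.00998), both higher in replicate 2 on the TMM scale. Aimp1, with 28.4 and 29.1 TPM, was not called. None of the 8 synthetases of the complex was called in the gene table scaled by TMM. In the second quantification Eprs was called higher in replicate 2, where 21.2% of all genes tested were called. With totals of the added ERCC RNAs all 8 were called higher in replicate 1, where 51.8% of all genes tested were called.

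Mitochondria also need enzymes that finish what the imported synthetases begin. The amidotransferase that turns glutamyl-tRNA into glutaminyl-tRNA has 3 subunits, Gatb with 8.01 and 7.18 TPM, Gatc with 8.88 and 8.12 TPM and Qrsl1 with 4.94 and 5.88 TPM. Mtfmt, which formylates the initiator methionyl-tRNA, had 2.65 and 2.11 TPM. The levels of these genes lie in the range of the mitochondrial synthetases, and none of the 4 was called. Among 4 editing and related factors, which remove wrongly attached amino acids, only Prorsd1 was called, with 7.17 and 9.27 TPM (log2 difference of counts -0.38, exact binomial test, adjusted p = 0.03). Aarsd1 had 7.87 and 6.94 TPM, Dtd1 5.44 and 4.93 TPM and Dtd2 2.31 and 2.20 TPM.

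The factors that carry charged transfer RNAs to the ribosome stood far above the synthetases. Eef1a2, the elongation factor of adult muscle and neurons, had 1015 and 1139 TPM, and Eef1a1, the form of most other cells, had 630.8 and 553.3 TPM. The 7 genes of this list summed to 2243 and 2319 TPM. Of them, 1 was called higher in replicate 1 (Eef1a1) and 4 in replicate 2 (Eef1a2, Eef1b2, Eef1d and Eef1g). A call also depends on the number of counts. Eef1b2 was called at a log2 difference of -0.097 from 3368 and 3227 counts, and Hars, at -0.096 from 891 and 853 counts, was not. In mitochondria Tufm, the elongation factor, had 65.9 and 65.3 TPM and its exchange factor Tsfm 12.6 and 11.4 TPM, and neither was called.

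Uncharged transfer RNA is sensed by the kinase that Eif2ak4 encodes, which acts through eIF2 and Atf4. Eif2ak4 had 2.82 and 1.65 TPM in replicates 1 and 2, a log2 difference of counts of 0.60 (exact binomial test, adjusted p = 7.14e-06). It was the only one of 5 genes tested in this list that was called. Atf4 had 45.9 and 43.5 TPM, Eif2s1, the kinase's substrate, 17.6 and 18.1 TPM, Gcn1l1, its partner, 14.1 and 10.6 TPM, and Impact, an inhibitor, 3.80 and 4.18 TPM. Several synthetase genes are themselves known targets of ATF4, and of 20 other target genes tested 4 were called higher in replicate 1 (Chac1, Ddit4, Pck2 and Vldlr) and 3 in replicate 2 (Atf3, Mthfd2 and Slc7a1). Ddit4 had 31.9 and 13.7 TPM and Atf3 1.88 and 15.6 TPM, so single targets moved in opposite directions by more than any synthetase did. Asns, a widely used target, had 0.77 and 1.48 TPM and was not called, and Fgf21 and Gdf15 had at most 1 count in a library. Of the enzymes that mature the ends of transfer RNAs, Trnt1 had 12.6 and 8.73 TPM, Hsd17b10 36.9 and 35.9 TPM, Elac2 8.74 and 8.82 TPM, Trmt10c 4.24 and 4.15 TPM and Elac1 1.61 and 1.60 TPM, and none of these 5 was called.

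The supply of each synthetase was set beside the demand for its amino acid, taken as the share of codons in nuclear-encoded coding sequences weighted by TPM. Glutamate was the most demanded amino acid, with 8.99% of codons. Its enzyme Eprs had a mean of 50.3 TPM, close to Sars at the top of the gene table. Tryptophan was the least demanded, with 0.997%, and Wars had the lowest cytosolic level of the gene table, 10.6 TPM. Protein_coding transcripts took 94.8% and 98.8% of Wars TPM and 25.2% and 31.5% of Qars TPM in replicates 1 and 2. They took 51.9% and 63.45% of Cars TPM and 66.0% and 58.9% of Tars TPM. Over protein_coding transcripts alone Qars, Cars and Tars thus lay below Wars in both libraries, though Tars is summed with Tarsl2 for threonine. In the gene table leucine and valine lay apart from the order of demand. Leucine took 8.57% of codons and Lars had a mean of 18.0 TPM, and valine took 6.38% and Vars had 12.03 TPM. At the other end, asparagine took 3.55% and Nars had 39.8 TPM. Across 20 amino acids r (Pearson) was 0.478 and rho (Spearman) 0.481, and the second quantification gave 0.371 and 0.295. For threonine the 2 genes were summed, for phenylalanine the 2 subunits were averaged, and Eprs stands for glutamate and for proline.

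For mitochondria the demand was taken from the 13 mRNAs of the mitochondrial genome. Leucine took 14.6% of their codons and isoleucine 9.44%, and Lars2 and Iars2 had the highest levels of the mitochondrial set in both quantifications. Methionine, with 6.27%, and proline, with 5.48%, lay apart, since Mars2 and Pars2 had the lowest TPM. Pars2 had 80 and 71 counts, but Mars2 had 617 and 584, over an annotated transcript of 11294 bases. The part of that annotated length in the low TPM of Mars2 was not tested. Ears2 was set beside glutamate codons (1.985%) alone and glutamine codons (1.854%) were left out, although glutamate is also attached first on the route to glutaminyl-tRNA. Across 17 amino acids r was 0.703 and rho 0.532, and r was 0.612 without leucine. These correlations describe amino acids that share the same 2 libraries and carry no test. For scale, Nars had 11.2 TPM for each percent of codons and Vars 1.88.

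**Figure D5:**
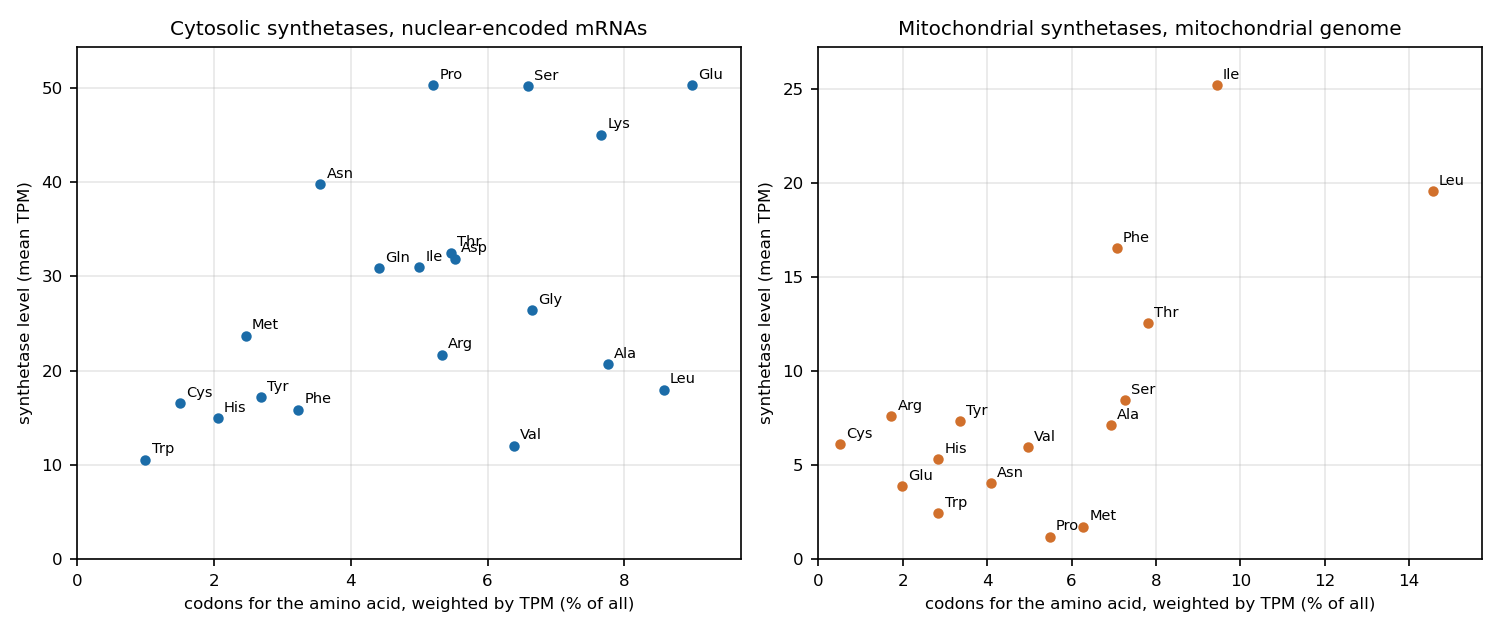
Mean TPM of the synthetase against the share of codons for its amino acid weighted by TPM, in percent of all codons, for cytosolic and dual synthetases with nuclear-encoded mRNAs (left, 20 amino acids) and for mitochondrial synthetases with the mitochondrial genome (right, 16 amino acids plotted). Valine and leucine lie low for their demand on the left, and methionine and proline on the right.

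Reads can be shared with other genes at some of these loci. In exons, 15 synthetase genes overlap another annotated gene, 14 on the opposite strand and 2 on the same strand. The overlap was largest in Iars2, which shares 2034 exonic bases with Rab3gap2 on the opposite strand (6.88 and 6.37 TPM), and in Aars, which shares 1326 bases with Exosc6 on the same strand, where Exosc6 was listed at 0. Shared sequence, with matches on either strand counted, was highest in 4 genes. Of the 31-base words of the leading transcript, 36.8% in Iars2, 22.7% in Aars, 19.7% in Cars2 and 17.7% in Iars matched a transcript of another gene. The main match lay on the opposite strand in Iars2 (Rab3gap2) and Cars2 (Naxd), and on the same strand in Aars and Iars. Whether counting used the strand is not given in the sources used here, so the levels of these genes are less certain.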

How the data were processed

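Total RNA-seq of 2 libraries from 1 group was analysed. Per the file headers and the deposited description (mm10, GENCODE M21), the authors quantified reads aligned to the transcriptome per gene and per transcript, and made a second transcript table straight from the reads with tools not given in the sources used here. Expected counts, as deposited, are estimated reads, not normalised. TPM, as deposited, was scaled by the authors over all entries, added RNAs included. The deposited percent column gives a transcript's share of its gene's TPM, and the deposited bounds are the quantifier's interval. The second table was summed per gene. The reference is not specific to CAST alleles, and alleles were not separated.

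Counts were rounded, and genes whose counts in the 2 libraries summed to at least 10 were tested with a two-sided exact binomial test (SciPy 1.17.1, direction replicate 1 over replicate 2) given library sizes scaled by TMM (edgeR 4.0.16, R 4.3.3), adjusted by Benjamini-Hochberg at 0.05 over all genes tested. The test was checked on simulated counts. Other scalings (DESeq2 1.42.0 size factors, total counts, added RNAs), count minimums, the second quantification and protein_coding transcripts alone were alternatives. Ratios are means of within-library TPM ratios with their SD. Single-gene log2 differences of TPM used a pseudocount of 1. Demand used the coding parts of 42743 GENCODE transcripts, chosen after seeing the data because the planned protein sequences were not used here. Members are named throughout, except 1 that stands in counts, sums, medians and correlations but is not reported singly here, and other genes come from fixed lists of related genes and cell type markers or are neighbours of a member. The symbols Gcn1 and Prorp did not match this annotation. Members and lists were chosen with earlier results of these data known.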

Additional observations from a re-analysis of the deposited data

How the results depend on the processing

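The number of genes called between the libraries was 3674, and it was 8931 with totals of the added ERCC RNAs. The 3 synthetases called became 5 with DESeq2 size factors and 5 with at least 100 counts (Farsb and Rars2 added), 7 in the second quantification, 1 with total counts and 27, all higher in replicate 1, with added RNAs. Of all genes tested, 21.3% were called at first. In these settings, in the same order, the share was 21.4%, 29.1%, 21.2%, 20.5% and 51.8%. Nars had a log2 difference of 0.063 in TPM but -0.132 in scaled counts. Tars over Tars2, 1.10 on average, was 0.933 without replicate 2 and 1.269 without replicate 1, and 0.767 and 0.713 over protein_coding transcripts in the first and the second quantification. The median cytosolic level of 19.96 TPM was 30.5 in the second quantification, 18.0 over protein_coding transcripts, 42.6 when TPM was rescaled to nuclear protein-coding genes and 19.1 without genes that share over 10% of their 31-base words. The same settings gave 51.1, 35.2 and 76.2 for the dual genes (35.7 at first), neither of which passes that limit, and 8.37, 4.47, 13.1 and 5.84 for the mitochondrial genes (6.13 at first). The cytosolic median stayed above the mitochondrial one in each of these. The correlation of cytosolic level with demand was 0.478 (rho 0.481), and 0.371 (rho 0.295) in the second quantification. The cause of these shifts was not tested. No paired analysis was possible because the labels give 1 group. Leaving out a library gives values with no test. The settings on shared 31-base words and on protein_coding transcripts of the second quantification were chosen after seeing the data.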

Other observations

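Some synthetase genes lie next to each other on GRCm38. Hars and Hars2 stand head to head on chromosome 18 and overlap by 195 exonic bases, and their levels were 14.7 and 15.1 TPM for the cytosolic gene and 5.24 and 5.37 TPM for the mitochondrial one. Iars2 and Eprs are separated on chromosome 1 by 33647 bases with 1 protein-coding gene between them. Mars overlaps Ddit3, a stress-response factor downstream of ATF4, by 68 exonic bases on the opposite strand, and Ddit3 had 4.6 and 4.27 TPM. The next closest synthetase genes, Vars and Vars2 on chromosome 17, are 639311 bases apart.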
